A study of Homo sapiens with 7 samples.

Results

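The PAX, SOX, sine oculis homeobox, DLX, LHX, IRX, NKX and POU genes encode transcription factors that pattern the embryo and fix the identity of tissues, most of them outside the liver. They were examined in HepG2, an established human liver cancer cell line, as every row of the expression table on the 22 autosomes with a symbol of these 8 families. The rule found 86 rows with 80 different symbols and 80 different sets of coordinates, among 21047 named rows on autosomes and 30032 rows in all. The study consists of 7 samples of HepG2, with 1 library for each assay. Native MNase-Seq gave the nucleosome positions, ChIP-Seq gave the positions that carry H3K4me3, H3K9ac, H3K27ac, H3K27me3 or H3K9me3, and RNA-Seq gave FPKM (fragments per kilobase of transcript, scaled to the number of mapped fragments) in 2 columns, here called run 1 and run 2. No second cell line or treatment was analysed here, so the members were compared with the other named loci of the same libraries, and no P value was computed.

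As background, silent developmental regulators are the classical targets of the Polycomb system. Polycomb repressive complex 2, with EZH2, EED and SUZ12, writes H3K27me3, and Polycomb repressive complex 1 binds to it. Trithorax-type methyltransferases write H3K4me3 at CpG-rich promoters, and H3K9ac and H3K27ac are added at active promoters and enhancers, so these 3 are called gene activation marks here. H3K9me3 belongs to constitutive heterochromatin. A nucleosome with H3K4me3 and H3K27me3 together is called bivalent and is best known from the developmental genes of embryonic stem cells, where these genes are poised. Following the study, a position with H3K4me3, H3K9ac and H3K27ac and no other mark is called trivalent or "T".

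The cells carried the RNA of hepatocyte-like cells, since 10 of 11 rows of hepatocyte markers had an FPKM of at least 1 and ALB, the gene of serum albumin, reached 9933 in run 1 and 10088.4 in run 2. Of 15 rows of endothelial, blood, stellate and neural markers, 3 reached 1, and PTPRC, CD3E and DES were listed at 0. These 3 were a row that CD68 shares with EIF4A1 and other genes, PDGFRB at 2.06 and 1.95, and 1 of 3 rows of SNAP25 at 2.1 and 7.07. RNA of the Polycomb and Trithorax genes was present, while protein was not measured. An FPKM of at least 1 was reached by all 10 rows of Polycomb repressive complex 2 and 16 of 18 of complex 1. All 10 rows of the Trithorax and H3K27 demethylase list reached it too. Some of these rows hold another gene as well, such as KIFC1 beside PHF1. EZH2 had 17.0 and 15.4 and SUZ12 had 20.4 and 20.9 in run 1 and run 2. Peak lists held from 26271 peaks for H3K27me3 to 95886 for H3K27ac, at 14217405 nucleosome positions. They give no reads or heights, so the depth behind a marked position is unknown.

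Most of the developmental factors were silent in HepG2. Of the 86 rows, 17 (19.8%) had a mean FPKM of at least 1, which was 52.2% among all named loci. Under 0.1 FPKM, called silent here, were 55 rows (64.0%, against 35.5%), 14 lay between these limits, and 38 rows were listed at 0 in both runs (background 21.2%). The median FPKM was 0.0141, against 1.44 for all named loci. The runs differed little for expressed members, with a largest ratio of 1.26 between them, and 3 of the 86 rows changed class from run to run.

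**Figure D1:**
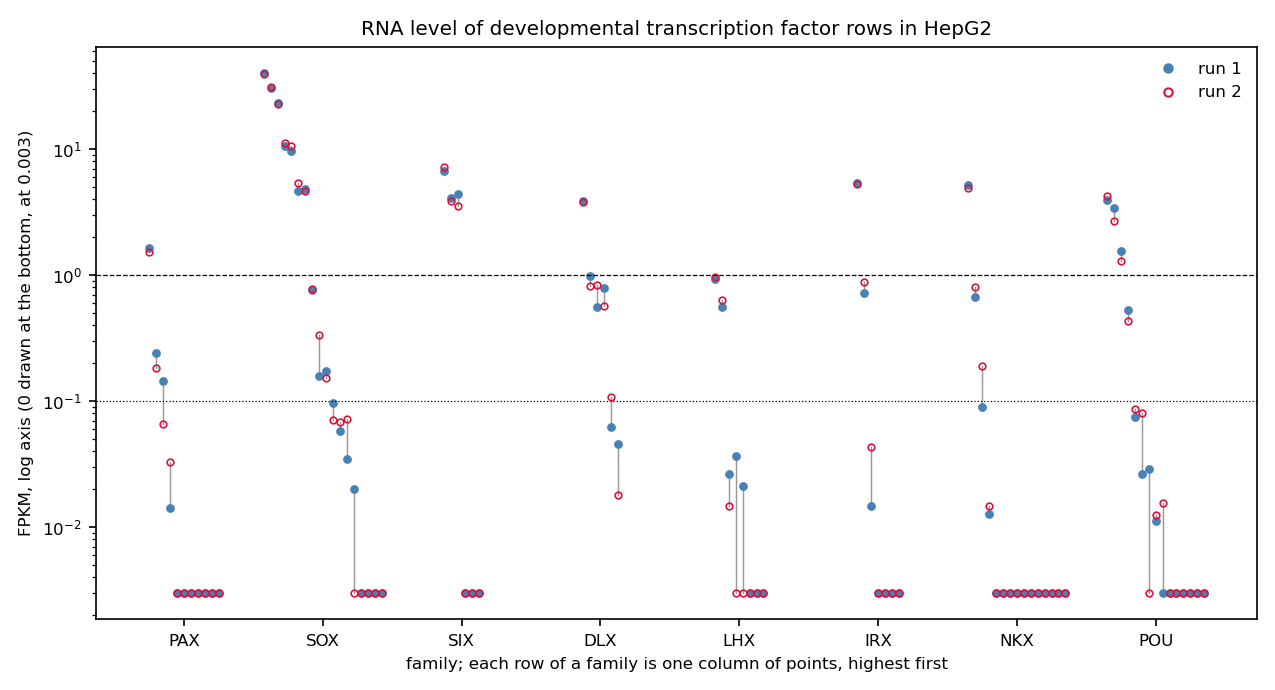
FPKM of the 86 rows (log axis) by family, with run 1 as filled and run 2 as open points joined by a line, the dashed line at 1 and the dotted line at 0.1. The 7 expressed SOX rows reach up to 40.1, whereas no LHX row reaches 1 and 11 of 15 NKX rows lie at 0.

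The SOX family of HMG-box factors had the most expressed rows, with 7 of 18 at or above 1. SOX9, a factor of cartilage and of bile duct and liver progenitor cells, had 40.1 FPKM in run 1 and 39.5 in run 2. SOX12 and SOX4, which with SOX11 form the SoxC group of neural and mesenchymal progenitors, had 23.1 and 22.7, and 4.66 and 5.34, respectively. SOX11 itself was nearly absent at 0.0349 and 0.0726, so 2 of the 3 SoxC genes were expressed. SOX18, an endothelial SoxF factor, had 10.5 and 11.1, and its relatives SOX7 and SOX17 had a mean of 0.163 and 0, respectively.

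The SoxD genes differed among themselves in the same way. SOX5 had 9.58 and 10.6 FPKM and SOX13 had 4.83 and 4.63, whereas SOX6 stayed below 1 at 0.759 and 0.768. The neural and stem cell factor SOX2 had 0.157 and 0.337, and SOX1 was listed at 0 in both runs. A row at 30.7 and 30.9 holds SOX15 together with 2 larger neighbouring genes, so this level cannot be given to SOX15.

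Among the sine oculis homeobox genes, factors of muscle, kidney and sensory organs, SIX4 had 4.09 and 3.90 FPKM, while SIX2, SIX3 and SIX6 were at 0 in both runs. SIX5 shares its row, at 6.70 and 7.19, with DMPK and DMWD.

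Each of the other families had few expressed members. In DLX, the distal-less genes of forebrain and facial skeleton, DLX6 had 3.84 and 3.78 FPKM, DLX4 had 0.976 and 0.821, and the neighbours DLX1 and DLX2 had a mean of 0.696 and 0.677. In IRX, 1 of 2 rows of IRX3 had 5.35 and 5.25, and its other row, on the opposite strand, had 0.717 and 0.878; all the remaining IRX rows were silent. Of the 15 NKX rows, 12 were silent. The thyroid and lung factor NKX2-1 and the beta cell factor NKX6-1 were at 0.

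Among the POU genes, POU2F1, the widely expressed OCT1, had 3.92 and 4.24 FPKM, POU4F1, a factor of sensory neurons, had 1.54 and 1.3, and POU5F1, the pluripotency factor OCT4, had 3.39 and 2.68. The POU5F1 row spans 27.8 kb and has 3 other named genes in its window, and this gene has processed copies elsewhere in the genome, so its level is uncertain. PAX8, a thyroid and kidney factor, reached 1.63 and 1.54 in 1 of its 3 rows. Its other rows, on the opposite strand, also hold LOC654433. LHX6 was the highest of 8 LHX rows, LIM-homeodomain factors of neurons and pituitary, at 0.922 and 0.960.

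The marks were counted in each locus and 10 kb on either side. Over all rows, activation marks were at a smaller share of the developmental factors than of named loci in general, and H3K27me3 was at a larger share. H3K4me3 was found at 58 of the 86 rows (67.4%, background 75%), H3K9ac at 48 (55.8%, background 75%), H3K27ac at 34 (39.5%, exact 95% interval 29.1 to 50.7, background 69.1%) and "T" at 28 (32.6%, background 64.4%). Any of these 3 marks was at 60 rows (69.8%, background 79.7%), and H3K4me3 on a position without other marks was at 50 (58.1%, background 62.4%). H3K27me3 was found at 47 rows (54.7%, exact 95% interval 43.6 to 65.4, background 31.4%). H3K9me3 was at 21 rows (24.4%, background 32.6%), and 11 rows had none of the 5 marks (12.8%, background 8.93%). Both repressive marks met on 1 position at 4 rows (4.65%, background 2.07%). These were the rows of PAX8, which share coordinates, and SOX5. They hold 2 different positions, which is 0.00498% of the positions in the members' windows, against 0.00465% at the other named loci. Within expression classes the order of H3K4me3 was the opposite. Among silent rows it was at 49.1% of members (exact interval 35.4 to 62.9) and 39.2% of the other named loci. Any activation mark was at 52.7% and 49.3% of these. H3K9ac, H3K27ac and "T" kept the lower share there, at 34.55%, 23.6% and 14.55% of silent members, against 39.9%, 29.0% and 22.05%. Among intermediate rows H3K4me3 was at 100% and 78.2%. For H3K27me3 the difference was smaller among silent rows than over all rows. It was at 60% of silent members (exact interval 45.9 to 73.0) and 45.3% of the other silent loci. Among intermediate rows it was at 50% and 38.3%, and among expressed rows at 41.2% and 20.2%. Intervals cover counting error over loci alone, and neighbouring loci share positions.

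The loci of these families are short, with a median of 8.79 kb and 150 nucleosome positions in the window, against 37.02 kb and 292 positions, so fewer positions were counted per member. Over the 40122 different positions in the members' windows, 116 carried H3K27me3, which is 0.289% (exact interval 0.239 to 0.347) against 0.160% at the other named loci. For H3K27ac the order was the opposite, 0.768% against 1.06%, whereas H3K4me3 was close, 1.17% against 1.05%. With H3K27me3 counted only within 10 kb of a start, the share of rows fell to 37.2%, and the background fell to 15.9%.

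**Figure D2:**
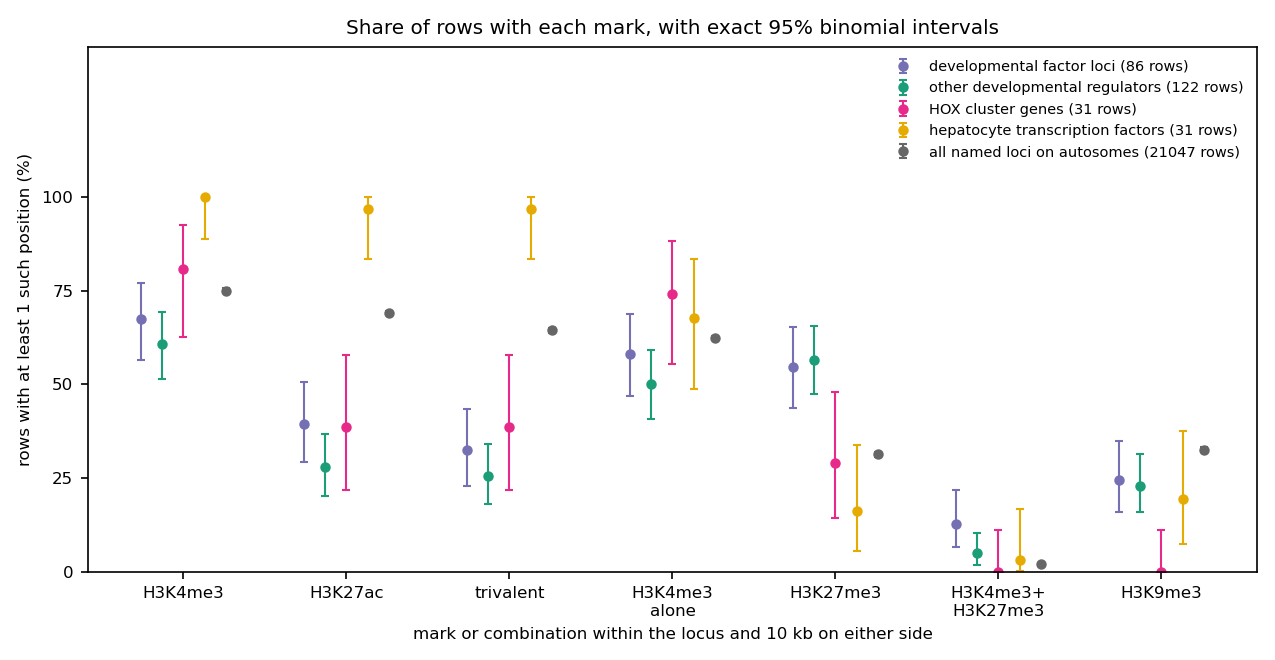
Share of rows (percent, with exact 95% binomial intervals) with at least 1 position of each kind in the locus and 10 kb on either side. H3K27me3 is at 54.7% of the developmental factor rows and 56.6% of other developmental regulators, against 29.0% of HOX cluster genes, 16.1% of hepatocyte transcription factors and 31.4% of all named loci.

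A list of other developmental regulators, such as FOX, TBX, GATA and HAND genes, had a share of rows with H3K27me3 close to that of the members. Of its 122 rows, 17 were expressed and 89 silent, 69 (56.6%) had H3K27me3, 34 (27.9%) had H3K27ac and 31 (25.4%) had "T". The 31 HOX rows had H3K27me3 at 9 (29.0%), with 19 silent rows, and no H3K9me3, although HOX windows overlap within their clusters. Hepatocyte transcription factors stood at the other end, with 28 of 31 rows expressed, "T" at 30 and H3K27me3 at 5.

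Splitting the 86 rows by kind of mark, 28 had activation marks without H3K27me3, 32 had both (37.2%, background 22.8%), 15 had H3K27me3 without any activation mark, and 11 had none of the 5 marks. All 15 rows of the third kind and all 11 of the last were silent. The silent rows without marks were NKX2-1 and NKX2-4 with 2 rows each, NKX2-3, NKX2-8, NKX6-2, PAX1, POU3F3, IRX4 and POU1F1, the last a pituitary factor. All 17 expressed rows had H3K4me3 and H3K9ac, which 98.5% of the other expressed loci had as well, and 15 of them (88.2%, against 95.2%) had "T". H3K27me3 was somewhere in the window of 7 (41.2%, exact interval 18.4 to 67.1), against 20.2% of the other expressed loci.

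**Figure D3:**
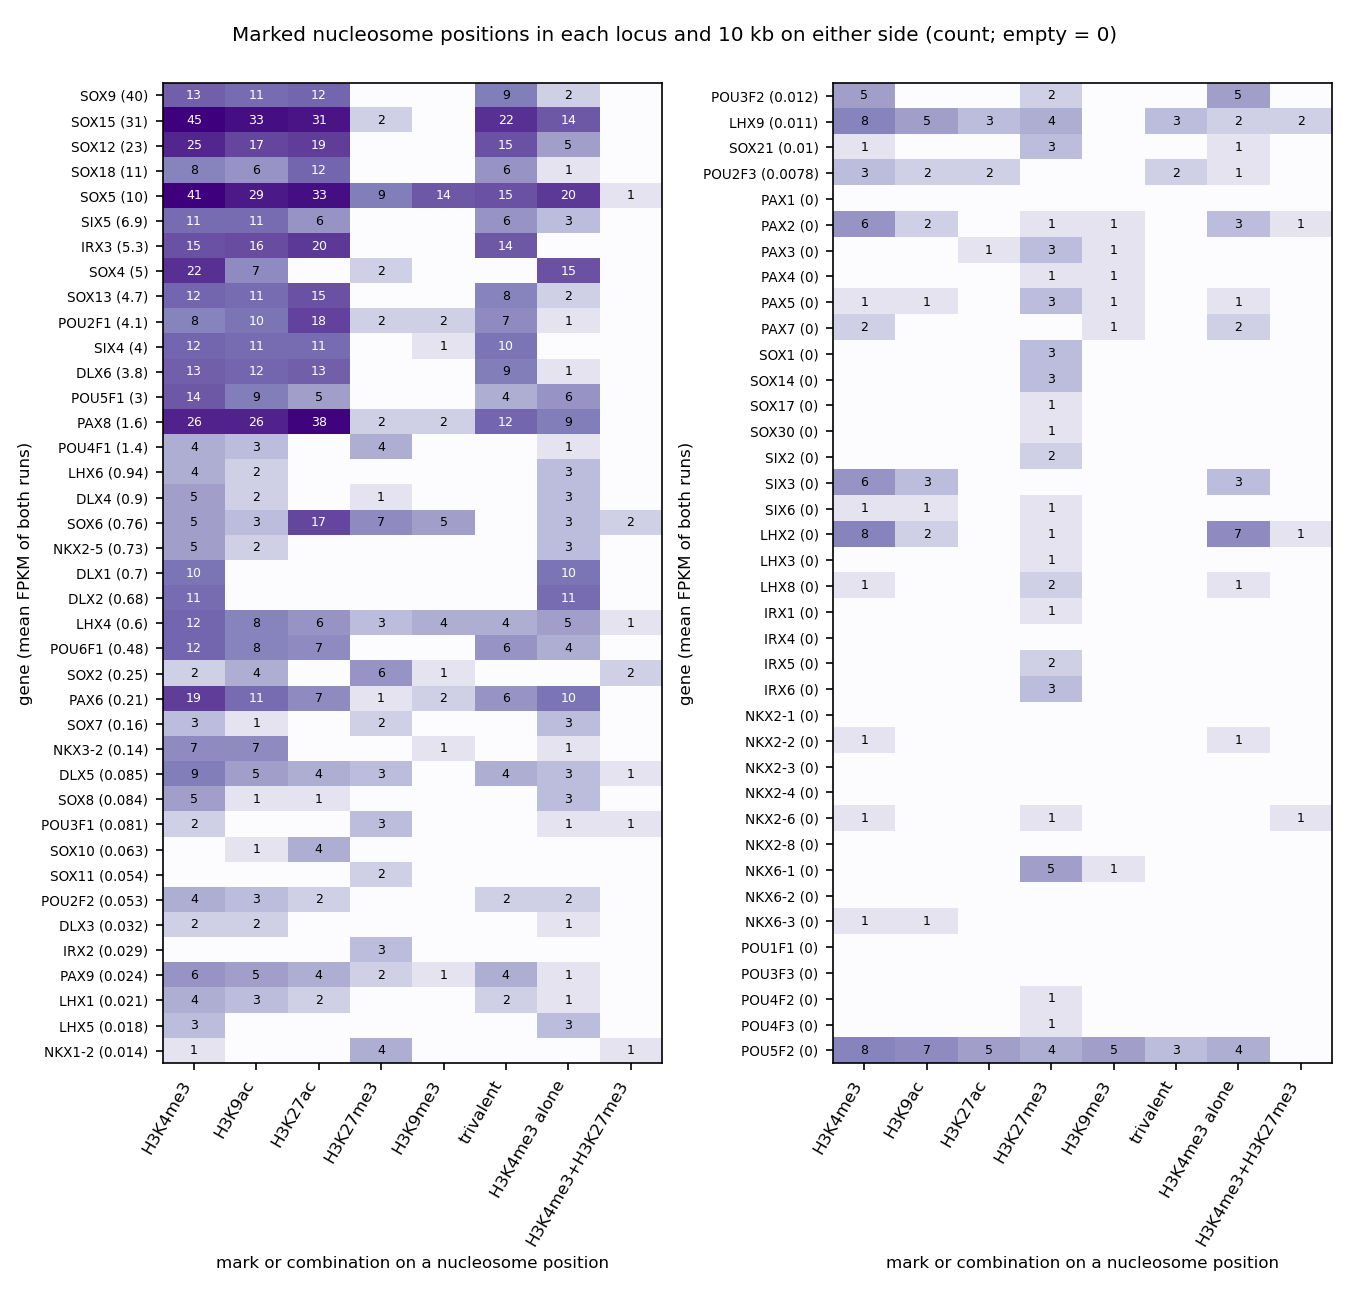
Number of nucleosome positions with each mark or combination at 77 of the 80 sets of coordinates, ordered by mean FPKM (in brackets, highest at top left, the highest row where several share coordinates). Counts of H3K4me3, H3K9ac and H3K27ac are highest in the upper left. The right panel, mostly genes at 0, holds H3K4me3 (8 positions at LHX2) as well as H3K27me3 (5 at NKX6-1) and empty rows.

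All 18 SOX loci and all 6 DLX and 8 LHX loci had at least 1 marked position, while 5 of 13 NKX loci had none. All DLX loci and 7 of 8 LHX loci had H3K4me3, and 5 of the LHX loci had H3K27me3. In the Iroquois family IRX3 alone had activation marks, with 15 H3K4me3, 20 H3K27ac and 14 "T" positions, including a run of 17 H3K27ac positions over 3225 bp, the longest run of this mark at any member. IRX1, IRX2, IRX5 and IRX6 had 1, 3, 2 and 3 positions with H3K27me3 and no activation mark. H3K9me3 was found at 8 of 9 PAX loci, with 1 or 2 positions each, at none of the DLX or IRX loci, and at 3 of 18 SOX loci, where the background is 32.6%. Length moved with this: apart from PAX4 at 5.44 kb, the PAX loci with H3K9me3 span from 84.55 kb at PAX2 to 517.2 kb at PAX6, whereas the DLX and IRX loci span from 3.31 kb at DLX2 to 48.9 kb at DLX6. The part of length in this was not tested. The spans of PAX3, PAX6, PAX8, PAX9 and DLX6 are coordinates shared with other rows, as at 25 of the 86 member rows. Length and marks of such a span need not be those of the named gene alone.

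H3K27me3 was sparse even where it was found. Of the 80 sets of coordinates, 36 had no position with H3K27me3, 14 had 1, 11 had 2, 10 had 3 and 9 had more. Counts were highest at long loci: SOX5 had 9 among 5394 positions over 1033 kb, SOX6 had 7 among 3337, and these lay scattered. Per 100 positions this was 0.167 at SOX5 and 0.210 at SOX6. SOX2, whose row spans 130.9 kb, had 6 of 774 positions (0.775 per 100). At NKX6-1, a locus of 7.49 kb, the same mark was on 5 of 136 positions (3.68 per 100).

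Loci with 4 positions were POU4F1, NKX1-2, LHX9 and POU5F2, and loci with 3 were DLX5, LHX4, POU3F1, IRX2, IRX6, SOX1, SOX14, SOX21, PAX3 and PAX5. Apart from POU4F1 and LHX4, these 14 genes were silent. H3K9me3 had its highest counts at long loci too, with 14 positions at SOX5, 5 each at SOX6 and POU5F2, and 4 at LHX4. The coordinates of SOX5, POU5F2 and LHX4 are shared with other rows, so these counts need not belong to the named gene alone.

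To look at promoters, 60 members were taken whose row has a symbol and coordinates of its own and an inferred strand, as have 12658 named loci in all; the start is the 5′ edge of such a locus. Within 2 kb of it, H3K4me3 was at 26 of 60 starts (43.3%, background 54.9%), H3K27ac at 8 (13.3%, background 45.6%), H3K27me3 at 15 (25%, background 9.43%) and H3K9me3 at 0 (background 2.39%). At the 9 expressed starts, all had H3K4me3 and H3K9ac (backgrounds 92.5% and 91.6%), 7 had H3K27ac and "T" (backgrounds 87.2% and 85.2%), and none had H3K27me3 (background 1.61%). The 42 silent starts had no H3K27ac and no "T" (backgrounds 3.07% and 1.86%). H3K4me3 was at 8 of them (19.0%, background 12.3%), H3K27me3 was at 13 (31%, exact interval 17.6 to 47.1, background 17.2%), and 25 had no mark (59.5%, against 69.5% of other silent starts).

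Starts of intermediate level stood between these. All 9 had H3K4me3 (exact interval 66.4 to 100, background 48.4%), 5 had H3K9ac (background 37.9%), and POU6F1 alone had H3K27ac (background 20.7%). H3K4me3 without H3K27ac was thus found at 8 of 9 intermediate starts, against 30.2% of the other intermediate starts. The median number of H3K4me3 positions there was 4, whereas it was 0 at the other intermediate starts and 5 at the expressed members. Across the 60 starts, Spearman's rho with FPKM was 0.863 for the number of H3K4me3 positions, 0.764 for H3K9ac, 0.585 for H3K27ac and -0.129 for H3K27me3. These are descriptions over genes of the same libraries, and many of the 60 points are tied at 0.

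**Figure D4:**
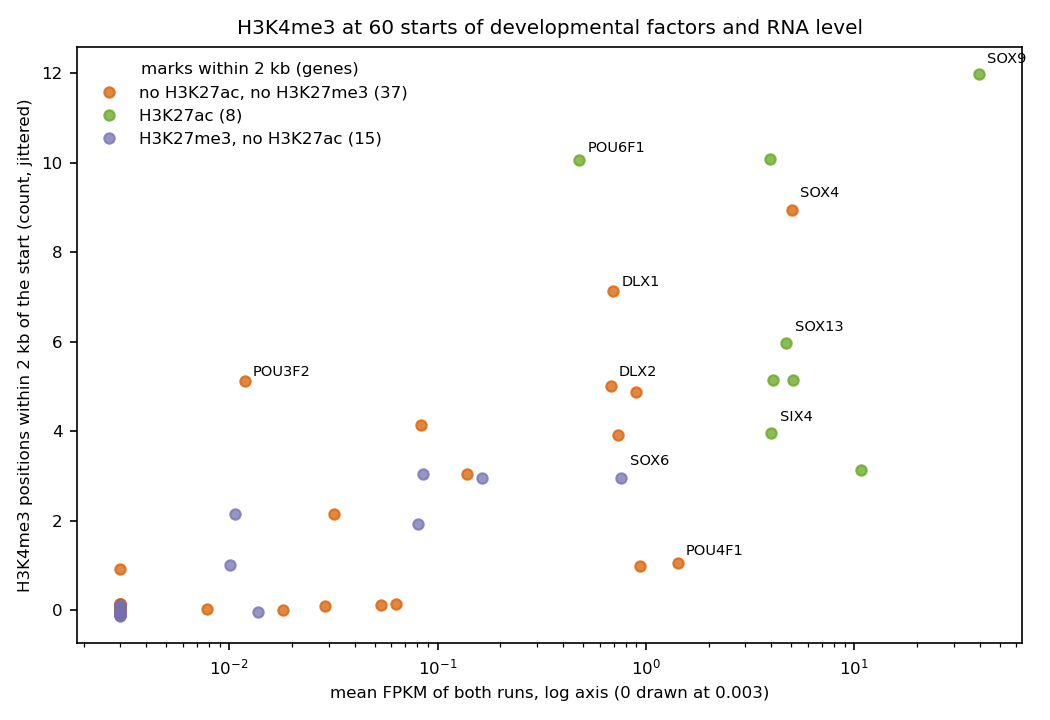
H3K4me3 positions within 2 kb of 60 starts (count, jittered) against mean FPKM (log axis), coloured by H3K27ac and H3K27me3 in the same window. The 8 starts with H3K27ac lie at an FPKM above 0.4, and SOX4 has 9 H3K4me3 positions without any.

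Promoter sequences were set beside these states. RefSeq (GRCh38.p14) gave promoters for 51 of the 80 symbols, each 250 bases before and 50 after an annotated start. The dinucleotide CG, the site of DNA methylation and the hallmark of CpG islands, was counted on the plus strand of the gene, which holds for both strands since CG is its own reverse complement. The 51 members had a median of 21 CG in 300 bases, averaged over the promoters of a gene, against 14 for 27305 genes. Of all 35116 promoters, 96.0% hold at least 1 CG. These sequences are of another genome build than the marks (hg19), so they were matched by symbol and not by position, and the annotated start need not be the locus edge used for distances.

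For 6 genes with a single promoter, chosen after the marks were seen to show each state at the start, the 250 bases before the start follow, 5′ to 3′, with CG in capitals. SIX4 stands for "T", SOX4 for H3K4me3 without H3K27ac, DLX2 for H3K4me3 alone, POU3F1 for a bivalent position, NKX6-1 for H3K27me3 alone and POU1F1 for no mark.
SIX4, chr14:60724352-60724601, minus strand: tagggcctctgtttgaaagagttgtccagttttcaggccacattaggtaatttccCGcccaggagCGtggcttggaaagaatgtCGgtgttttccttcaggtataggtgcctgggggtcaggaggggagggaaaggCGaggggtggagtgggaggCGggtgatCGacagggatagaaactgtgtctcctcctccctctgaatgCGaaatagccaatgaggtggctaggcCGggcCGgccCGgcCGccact
SOX4, chr6:21593501-21593750, plus strand: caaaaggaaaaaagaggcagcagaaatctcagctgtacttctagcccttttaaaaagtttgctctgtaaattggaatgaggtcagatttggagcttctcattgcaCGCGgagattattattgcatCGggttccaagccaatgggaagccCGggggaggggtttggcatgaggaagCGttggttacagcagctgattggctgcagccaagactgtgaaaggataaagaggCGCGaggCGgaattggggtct
DLX2, chr2:172102901-172103150, minus strand: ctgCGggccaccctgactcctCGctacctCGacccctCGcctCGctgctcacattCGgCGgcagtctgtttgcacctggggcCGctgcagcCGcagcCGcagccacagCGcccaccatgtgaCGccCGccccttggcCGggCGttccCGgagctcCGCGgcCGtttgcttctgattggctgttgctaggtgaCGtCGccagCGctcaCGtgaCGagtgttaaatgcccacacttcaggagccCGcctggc
POU3F1, chr1:38046794-38047043, minus strand: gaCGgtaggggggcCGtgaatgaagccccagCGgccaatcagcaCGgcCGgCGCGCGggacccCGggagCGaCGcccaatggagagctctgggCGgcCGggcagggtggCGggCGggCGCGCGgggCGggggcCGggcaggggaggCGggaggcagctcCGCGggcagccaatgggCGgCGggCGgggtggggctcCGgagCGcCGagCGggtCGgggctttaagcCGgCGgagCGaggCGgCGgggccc
NKX6-1, chr4:84499293-84499542, minus strand: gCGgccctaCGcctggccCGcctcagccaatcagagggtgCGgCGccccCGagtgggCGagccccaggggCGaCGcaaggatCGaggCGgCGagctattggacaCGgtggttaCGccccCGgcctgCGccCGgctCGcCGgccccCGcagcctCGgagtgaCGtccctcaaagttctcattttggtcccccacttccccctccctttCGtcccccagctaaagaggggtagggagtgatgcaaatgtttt
POU1F1, chr3:87276585-87276834, minus strand: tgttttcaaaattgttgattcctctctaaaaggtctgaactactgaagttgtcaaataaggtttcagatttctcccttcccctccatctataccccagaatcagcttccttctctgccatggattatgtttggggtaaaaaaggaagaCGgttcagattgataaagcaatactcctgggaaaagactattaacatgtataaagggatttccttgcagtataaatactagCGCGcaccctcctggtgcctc

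The 300-base promoters of these genes hold 14 CG at SIX4, 8 at SOX4, 30 at DLX2, 49 at POU3F1, 24 at NKX6-1 and 4 at POU1F1. As many as at POU3F1 are found in 1.60% of all promoters, and as many as at SOX4 in 60.7%. CG number did not separate the states over the members, since their ranges overlapped. The median was 17.7 at 4 genes with "T" within 2 kb and 27 at 8 with H3K4me3 but neither "T" nor H3K27me3. It was 18.5 at 4 genes with H3K4me3 and H3K27me3, 24 at 7 with H3K27me3 without H3K4me3 and 22 at 14 with neither.

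Activation marks at expressed genes ranged from a block around the start to a few positions. SOX9 had 13 H3K4me3 positions from 737 bp upstream to 2206 bp downstream of its start, 11 H3K9ac and 12 H3K27ac positions, and 9 "T" positions. SIX4 had 10 "T" positions between -9679 and 3706 bp of its start, 8 of them in 1 run of 2627 bp. SOX13 had 8 between 77 and 56485 bp downstream, 7 of them in 1 run of 2128 bp. SOX18 had 1 "T" within 2 kb at 10.5 and 11.1 FPKM. POU2F1 had 7 "T", all between 198 and 2353 bp downstream of its start. POU6F1 had 6 "T" within 2 kb at an FPKM of only 0.530 and 0.430, which makes it the intermediate start with a pattern like that of the expressed ones.

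SOX4 was expressed without H3K27ac. It had 22 H3K4me3 positions from 5639 bp upstream to 3561 bp downstream, of which 15 carried H3K4me3 alone and 7 also H3K9ac, with no H3K27ac or "T" in the whole window and 2 H3K27me3 positions 6122 and 6236 bp upstream. Within 2 kb it had 9 H3K4me3 and 5 H3K9ac positions. Of 2189 other starts with an FPKM from 2 to 10, 201 (9.18%) had H3K4me3 and no H3K27ac within 2 kb, and 4 had at least 9 H3K4me3 and no H3K27ac; this limit was set at the value of SOX4 after it was seen. POU4F1 was the other expressed start without H3K27ac, with 1 H3K4me3 position within 2 kb, also acetylated at H3K9, and 4 H3K27me3 positions from -4332 to -3637 bp of its start.

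**Figure D5:**
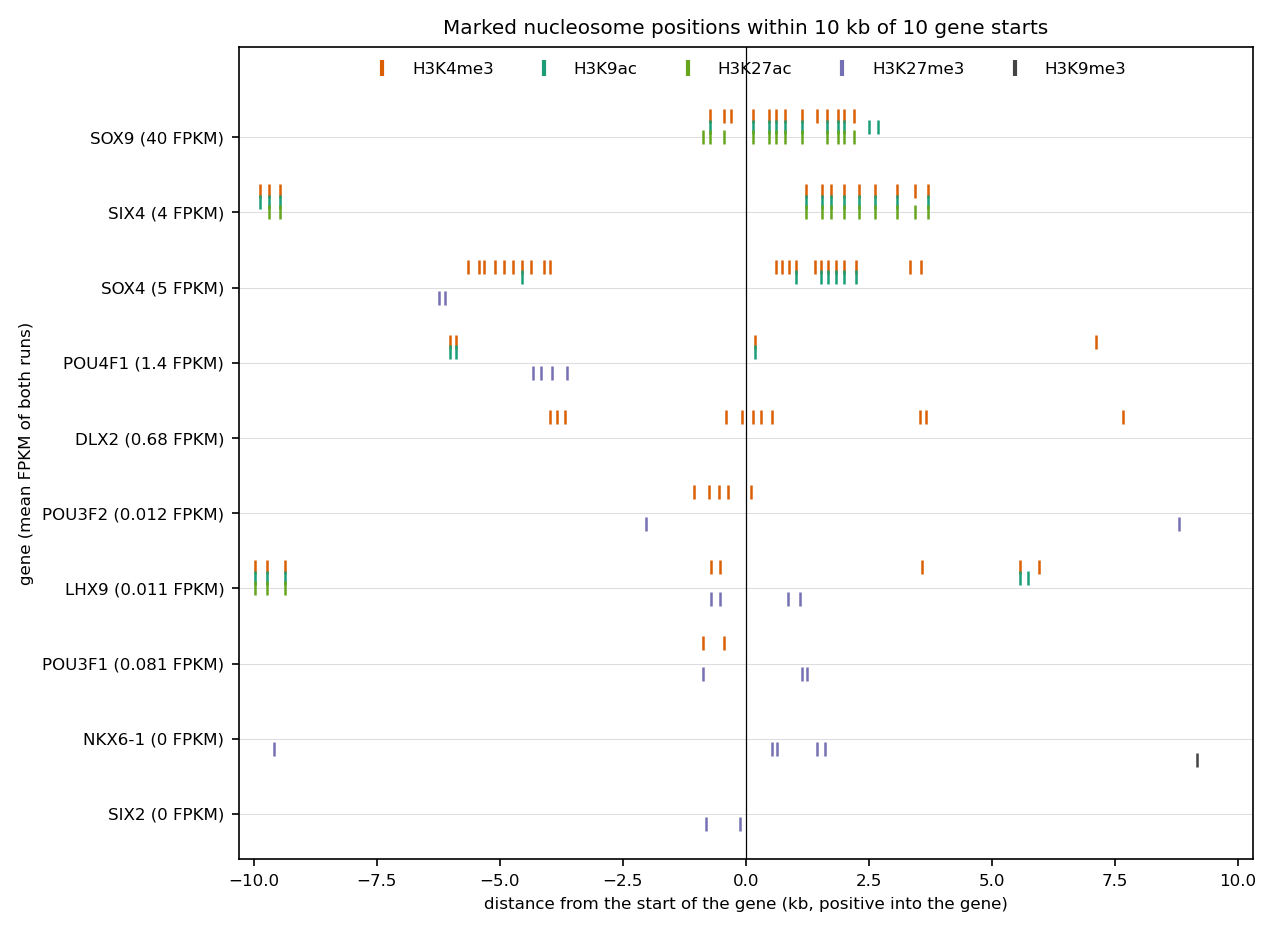
Marked nucleosome positions within 10 kb of 10 starts (distance in kb, positive into the gene), each mark in its own colour and row, with the mean FPKM in brackets. SOX9 has H3K4me3 from -737 to 2206 bp, DLX2 has H3K4me3 only, POU3F1 and LHX9 have positions with H3K4me3 and H3K27me3 upstream of the start, and SIX2 has 2 H3K27me3 positions.

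H3K4me3 without acetylation was a common form at these genes. Of the 469 H3K4me3 positions in the members' windows, 39.9% (exact interval 35.4 to 44.5) carried H3K4me3 alone, against 25.8% at the other named loci, and 38.6% were "T", against 51.8%. In each expression class the members were on the higher side: alone were 29.2% of the H3K4me3 positions at expressed members, 46.6% at intermediate and 49.2% at silent ones, against 23.4%, 30.5% and 33.1% at all named loci of the class. Positions within a locus are not independent, so the intervals are too narrow.

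The paired genes DLX1 and DLX2 showed it in its plainest form. DLX1 had 10 and DLX2 11 H3K4me3 positions, all of them alone, and no other mark, although their windows overlap. At DLX2 they reached from 3989 bp upstream to 7674 bp downstream. POU3F2, a brain factor listed at 0.0112 and 0.0126 FPKM, had 5 H3K4me3 positions alone from 1043 bp upstream to 102 bp downstream of its start. LHX2, at 0 in both runs, had 8 H3K4me3 positions, none closer to the start than 6208 bp.

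Bivalent positions were rare and were found at 11 of the 86 rows (12.8%, exact interval 6.56 to 21.7, background 2%). The members' windows held 14 of them, 0.0349% (0.0191 to 0.0585) of the positions, against 0.00449% at the other named loci. Among other developmental regulators 6 of 122 rows (4.92%) had such a position, and among 31 HOX rows none did, with an upper bound of 11.2%. Of the 11 genes, SOX5 was expressed, SOX6, LHX4 and SOX2 were intermediate, and DLX5, POU3F1, NKX1-2, LHX9, PAX2, NKX2-6 and LHX2 were silent.

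Several of these positions lay close to a start. DLX5 had its bivalent position 1 bp from the start, SOX6 had 2 at 941 and 1094 bp downstream, LHX9, of the LIM-homeodomain family, had 2 at 533 and 703 bp upstream, and POU3F1, a factor of myelinating cells, had 1 at 872 bp upstream. H3K4me3 and H3K27me3 thus met within 2 kb at 4 of the 60 starts (6.67%, background 1.29%), and the levels ran from a mean of 0.0107 FPKM at LHX9 to 0.763 at SOX6. Others lay far away, at 83097 bp downstream of the PAX2 start and 8411 bp upstream of that of NKX2-6. At SOX2 and SOX5, and at 1 of the positions of SOX6, the position was also marked by H3K9ac. As ChIP-Seq of a cell population gives an average, the marks may sit on different cells or alleles.

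Some silent starts had H3K27me3 without H3K4me3. NKX6-1 had 4 positions within 2 kb, the nearest at 531 bp, NKX1-2 had 3, and SIX2, a kidney progenitor factor, had 2 at -114 and -804 bp.

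Silent rows with a "T" position in the window were 1 row of PAX8 and LHX1, LHX9, DLX5, PAX9, POU2F2, POU2F3 and POU5F2. The silent PAX8 row also holds LOC654433, lies on the strand opposite to the expressed PAX8 row and shares its window. Where the start was known, the "T" positions of silent rows were far from it, at least 9371 bp upstream at LHX9, 7401 bp downstream at DLX5 and 85111 bp downstream at POU2F3. Windows of 41 of the 86 rows hold another named gene, and to which gene such positions belong was not tested.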

How the data were processed

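The authors digested native chromatin of HepG2 with micrococcal nuclease, mapped nucleosomes with DANPOS, and used NUCLIZE to find those enriched in each ChIP-Seq library over input (4-fold or more, with P and false discovery rate no higher than 0.01). They deposited coordinates and an identifier for each, and gene expression as FPKM in 2 columns. Whether the columns are separate cultures is not stated. The submitters' processing notes name hg19, BWA, Bowtie, TopHat2 2.1.0, HOMER 4.7 and edgeR, without roles. A comparison of the 2 columns by the authors (fold changes and p-values) was not used.

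The mean FPKM of both columns was used as 1 replicate. Each of the 312199 peaks on autosomes was given to the position it overlapped most, which carried the identifier of the peak in all cases. A position was counted by its midpoint, in the locus and 10 kb on either side or within 2 kb of a start. The strand was inferred from the numbering of loci and was that of RefSeq at 7977 of 8005 starts. Left out were 2 rows on X and 6 on alternative haplotypes. Shares have exact Clopper-Pearson 95% intervals. The members and gene lists were chosen with earlier results of these data known. Genes were named if they had an FPKM of at least 1, were among the 10 with the most H3K27me3 or 5 with the most H3K9me3, had a bivalent position, were silent with "T", led their family or had no mark, and other named genes were chosen after their values were seen. Single values of 3 members are not reported here, though they enter all counts. Alternatives were windows of 2 and 5 kb, the start alone, any overlap of 1 bp, other limits of FPKM, pseudocounts, and subsets of rows. Counting was tested on simulated positions. Scripts ran on Python 3.11.15 with matplotlib 3.10.9, scipy 1.17.1, pandas 2.3.3 and numpy 2.4.6.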

Additional observations from a re-analysis of the deposited data

How the results depend on the processing

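Of 70 alternatives listed at the start, 53 left a value within its limits (95% interval for shares, 1.5 times for counts). Of 24 chosen after the data were seen, 21 did. Neither limit covers the median and mean log2 FPKM. Against a median of 0.0141, 0.00898 (rows with 1 symbol and their own coordinates) and 0 (no other named gene in the window) were still counted as within. Counting within 10 kb of the start alone moved the shares of rows with H3K27me3 to 37.2%, with an activation mark to 57.0%, with H3K9me3 to 6.98%, with no mark to 25.6% and with activation marks and H3K27me3 to 22.1%, and the share of positions with H3K27me3 to 0.740%. These start counts took all 86 rows, also those whose start is the edge of a span shared with other rows or genes. A window of 2 kb moved the share without marks to 23.3%. Rows with 1 symbol and their own coordinates gave 15% with H3K9me3 and 0.489% of positions with H3K27me3. Rows with no other named gene in the window gave 15.6% and 0.463%, with 6 bivalent positions in place of 14. Any overlap as a match gave 0.376% of positions with H3K27me3. Rows at an FPKM of at least 5 were 10.5%, at least 0.1 were 36.0%, and under 0.01 were 45.3%. The median FPKM of rows above 0 was 0.638. The mean log2 FPKM was -3.54 with a pseudocount of 0.01, -1.66 with 0.1, 0.68 with 1 and -1.08 for rows above 0, while all named loci gave -0.36, 0.66 and 2.08 with these pseudocounts.

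No paired analysis was possible because each assay had 1 library. No library was left out in turn for the same reason, and the error between libraries is unknown. Peaks without read counts allow no stricter threshold, and an unmarked position says only that no peak passed the authors' threshold.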

Other observations

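Members of the families outside the autosomes were not counted above. SOX3, a SoxB1 factor on chromosome X, had 0.0417 FPKM in run 1 and 0.0243 in run 2, and POU3F4 was listed at 0 in both. The 6 further rows of POU5F1 on alternative haplotypes of chromosome 6 were also listed at 0, while its row on the chromosome itself had 3.39 and 2.68.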
